A study of Mus musculus with 8 samples.

Results

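The Ikaros family of zinc finger transcription factors was followed through tumour-antigen-specific CD8+ T cells of wild-type and Cd69-deficient mice. Its 5 genes, Ikzf1 (Ikaros), Ikzf2 (Helios), Ikzf3 (Aiolos), Ikzf4 (Eos) and Ikzf5 (Pegasus), were found by symbol, 1 row each, among 23746 rows of each gene table. The family was chosen by the FPKM of Ikzf2, which was lower in the Cd69-deficient libraries of both sorted subsets, so the genotype values are given as a description with no test, and the tests concern the subsets. RNA-seq was done on 8 libraries of sorted CD8+ T cells that bind the AH1 tetramer, which carries a peptide of a murine leukaemia virus envelope protein. All mice were BALB/c. The groups were wild-type stem-like, Cd69-/- stem-like, wild-type term diff and Cd69-/- term diff, with 2 libraries in each, and Cd69-/- is called Cd69-deficient and term diff is written term-diff here. Age, sex, tumour, sort gates, the design of the Cd69 allele, any pooling of mice and whether libraries of different groups share a mouse are not given in the sources used here, so p-values measure the spread between these libraries, which may be technical.

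Ikaros proteins bind DNA through a cluster of zinc fingers near the amino terminus and join one another through fingers at the carboxy terminus. They recruit chromatin complexes such as NuRD and can silence or maintain genes during lymphocyte development. Ikaros is made throughout the lymphoid lineage, Aiolos is known from maturing B cells and differentiated T cells, Helios and Eos are best known from regulatory T cells, and Pegasus is a more distant and widely expressed member. Splice forms that lack DNA-binding fingers but keep the joining fingers can interfere with full-length proteins.

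The coding sequence of the second finger of the amino-terminal cluster is shown for each member, because near-identical fingers could let reads be assigned to the wrong gene. Sequences are of the GENCODE M21 transcripts on GRCm38 (the assembly also called mm10), 5′ to 3′ on the coding strand, each inside 1 exon, and capitals mark bases that differ from Ikzf2.
Ikzf2: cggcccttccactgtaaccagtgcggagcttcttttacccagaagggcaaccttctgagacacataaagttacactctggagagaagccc
Ikzf1: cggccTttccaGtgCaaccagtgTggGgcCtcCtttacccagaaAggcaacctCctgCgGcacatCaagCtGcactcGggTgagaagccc
Ikzf3: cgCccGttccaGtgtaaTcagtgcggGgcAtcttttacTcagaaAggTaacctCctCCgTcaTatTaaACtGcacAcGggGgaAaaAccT
Ikzf4: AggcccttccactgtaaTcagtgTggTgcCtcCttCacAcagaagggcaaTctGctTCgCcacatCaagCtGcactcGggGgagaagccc
Ikzf5: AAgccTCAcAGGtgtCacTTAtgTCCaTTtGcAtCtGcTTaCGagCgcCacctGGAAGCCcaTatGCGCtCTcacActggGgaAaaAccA

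The Ikzf2 stretch lies at chr1:69570566-69570655 on the minus strand, in exon 5 of the longest-coding transcript with the most finger matches. The others lie at chr11:11754012-11754101 (Ikzf1, plus strand, exon 6), chr11:98488925-98489014 (Ikzf3, minus strand, exon 5), chr10:128640214-128640303 (Ikzf4, minus strand, exon 5) and chr7:131392486-131392575 (Ikzf5, minus strand, exon 4). Over these 90 bases Ikzf1 differed from Ikzf2 at 16, Ikzf4 at 18 and Ikzf3 at 24. Ikzf5 differed at 46, which left 48.9% identity. Of the 10 pairs of members 0 shared any stretch of 76 bases, the number of read cycles, in any annotated transcript on either strand, and the longest shared stretch was 32 bases, between Ikzf2 and Ikzf4. Reads of full length that match without error therefore belong to 1 member in this annotation. The values below are totals per gene: GENCODE lists 6 complete coding transcripts of Ikzf2 with 2 to 5 matches to the Cys2His2 finger spacing, and 4 of Ikzf1 with 3 to 5, and the tables do not separate them.

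Expression is in FPKM as deposited (fragments relative to transcript length and sequencing depth), so levels can be compared between genes. Differences are on the log2(FPKM + 1) scale ± standard error, which understates changes of low genes. The deposited confidence limits implied 2055411 to 2591061 fragments per library. Summed FPKM ran from 282589 to 919280, and the wild-type replicate 2 libraries of both subsets stood apart with the lowest sums (341257 and 282589), so results were also computed without them. Cd69 was at 10.4 to 23.4 FPKM in the 4 wild-type libraries and 2.21 to 3.69 in the 4 Cd69-deficient ones. Tcf7, a factor of progenitor-like T cells, was at 40.6 to 64.2 FPKM in stem-like and at most 0.755 in term-diff, and the cytotoxic granzyme Gzmb was at 23.6 to 49.5 and at 273 to 440. Cd69 thus did not overlap between the genotypes, nor Tcf7 or Gzmb between the subsets. All 8 CD8 T cell markers were detected, with sums of 1022 to 1162 FPKM in wild-type and 1181 to 1205 in Cd69-deficient stem-like libraries, and of 1023 to 1081 and 1346 to 1502 in term-diff. The sum was higher in the Cd69-deficient libraries of each subset, where Ikzf2 was lower, and its part in that difference was not tested. Not every marker separated: Cd8a in term-diff was at 131 and 138 FPKM in wild type and at 166 and 129 in Cd69-deficient libraries. None of the 8 passed by limma between genotypes in either subset.

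**Figure D1:**
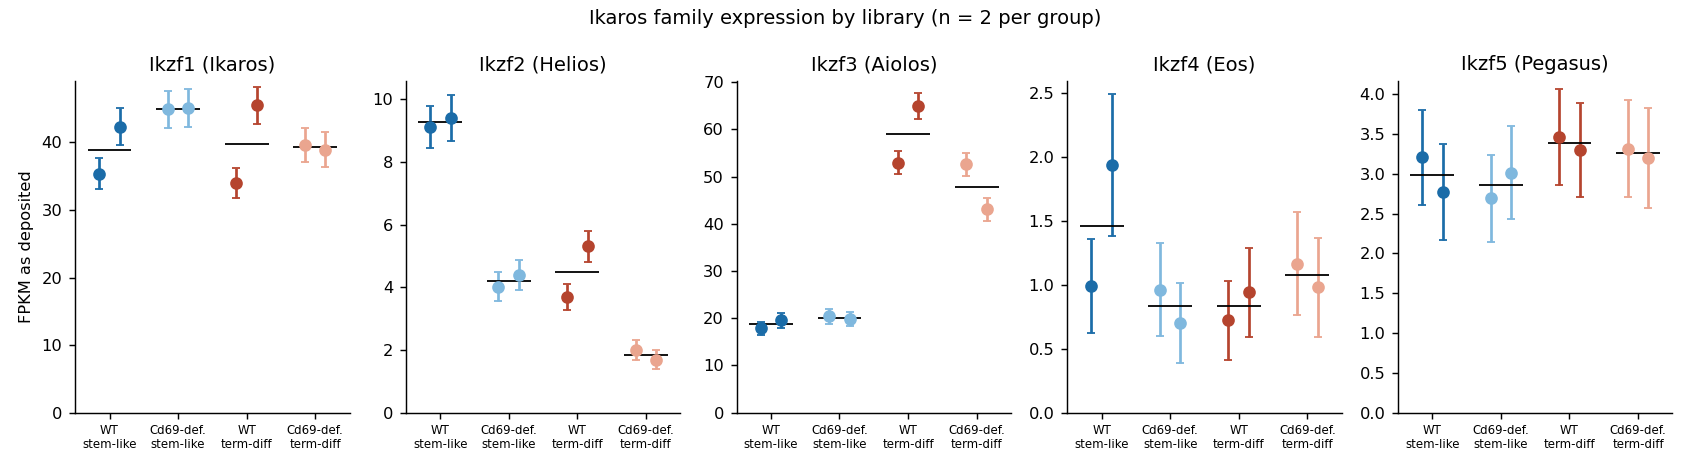
FPKM of each member in each library (points, with the deposited confidence limits as bars) and the group mean (black line), n = 2 per group, with a separate axis for each gene. Ikzf2 runs from 9.40 FPKM in wild-type stem-like down to 1.69 in Cd69-deficient term-diff, Ikzf3 is high in all 4 term-diff libraries, and Ikzf1 and Ikzf5 vary little.

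Between the subsets, Aiolos rose and Helios fell from stem-like to term-diff cells in both genotypes, while Ikaros, Eos and Pegasus did not pass the test. In wild type 2 of 5 members were called, 1 higher and 1 lower, against 13.1% of all 9782 genes tested (7.24% higher and 5.83% lower). In Cd69-deficient cells the same count was 2 of 5, again 1 in each direction, against 9.45% (3.88% higher and 5.56% lower). Calls are from limma with an adjusted p under 0.05. All 5 members passed the filter of at least 1 FPKM in at least 2 libraries, Ikzf4 with only 2 libraries above that level.

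Ikzf3 encodes Aiolos, a partner of Ikaros that accumulates as lymphocytes mature (mm10 chr11:98464693-98546031). It was at 17.8 and 19.5 FPKM in wild-type stem-like and at 53 and 65 in wild-type term-diff. In the Cd69-deficient libraries it was at 20.4 and 19.8 in stem-like and at 52.6 and 43.1 in term-diff. Every term-diff library lay above every stem-like library, with no overlap in deposited confidence limits; in 14.5% of genes both term-diff libraries were above both stem-like libraries in each genotype. The wild-type mean was 18.7 ± 1.2 FPKM (SD, n = 2) in stem-like and 59 ± 8.49 in term-diff, a 3.16-fold ratio. The Cd69-deficient mean was 20.1 ± 0.398 in stem-like and 47.8 ± 6.74 in term-diff, a 2.38-fold ratio. The fitted rise was 1.60 ± 0.15 in wild type (limma adjusted p = 0.000525) and 1.20 ± 0.15 in Cd69-deficient cells (limma adjusted p = 0.00231). Genes called higher in both genotypes made up 2.63% of those tested. The call for Ikzf3 held without any 1 library in both genotypes, and ended when libraries were rescaled to an equal sum of FPKM (adjusted p = 0.35 and 0.997).

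The order of Ikzf3 levels was wild-type term-diff, Cd69-deficient term-diff, Cd69-deficient stem-like and wild-type stem-like. Libraries of the genotypes did not overlap in either subset, with the Cd69-deficient ones higher in stem-like and lower in term-diff. The share of all genes that separate in this way was not counted. The deposited limits of the nearest libraries, which cover counting error only, did overlap (50.5 to 55.4 and 50.1 to 55.1 FPKM in term-diff, 17.9 to 21.2 and 18.3 to 21.4 in stem-like). The rise was larger in wild type, but the test of that difference did not pass (interaction -0.40 ± 0.21, 95% interval -0.88 to 0.09, limma adjusted p = 0.562). Between genotypes the fitted Ikzf3 values were 0.10 ± 0.15 in stem-like and -0.30 ± 0.15 in term-diff.

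Ikzf2 encodes Helios, known from regulatory T cells, where it supports a stable identity, and also found in subsets of CD8+ T cells (mm10 chr1:69531210-69685960). It was at 9.12 and 9.40 FPKM in wild-type stem-like and at 3.69 and 5.31 in wild-type term-diff. Among Cd69-deficient libraries it was at 4.02 and 4.39 (stem-like) and at 2.01 and 1.69 (term-diff). Within each genotype both term-diff libraries lay below both stem-like libraries, as in 13.9% of genes. The means were 9.26 ± 0.198 and 4.50 ± 1.14 FPKM in wild type (SD, n = 2), a 2.06-fold lower level in term-diff, and 4.21 ± 0.261 and 1.85 ± 0.228 in Cd69-deficient cells, 2.28-fold lower. The fitted change was -0.92 ± 0.16 in wild type (95% interval -1.28 to -0.55, limma adjusted p = 0.0083) and -0.87 ± 0.16 in Cd69-deficient cells (95% interval -1.24 to -0.51, limma adjusted p = 0.0127). Genes called lower in both genotypes made up 3.92% of those tested.

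The wild-type call for Ikzf2 held without any 1 library (highest adjusted p = 0.0424), and without both wild-type replicate 2 libraries (adjusted p = 0.0342). In Cd69-deficient cells, leaving out a library of that genotype raised the adjusted p to 0.0683 (stem-like replicate 1), 0.0732 (stem-like replicate 2) and 0.0848 (term-diff replicate 2), each of which ends the call, and no filter on low values also ended it (adjusted p = 0.051). With limma voom on the implied fragments, which adds no pseudocount of 1 FPKM, the change was -1.13 ± 0.13 in wild type (adjusted p = 1.19e-05) and -1.11 ± 0.16 in Cd69-deficient cells (adjusted p = 0.000132).

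Between genotypes, the contrast from which the family was chosen, Ikzf2 was at 9.12 and 9.40 FPKM in wild-type and 4.02 and 4.39 in Cd69-deficient stem-like libraries, and at 3.69 and 5.31 against 2.01 and 1.69 in term-diff. Libraries of the genotypes did not overlap in either subset, nor did their deposited confidence limits, which in term-diff ran from 3.26 to 5.81 FPKM in wild type and from 1.38 to 2.33 in Cd69-deficient cells. The Cd69-deficient mean was 0.454 times the wild-type mean in stem-like (fitted -0.98 ± 0.16) and 0.411 times in term-diff (-0.94 ± 0.16). These differences stood at place 39 and place 44 of 9782 genes when ordered from the most negative. The family was chosen by these low values, so the places describe them and test nothing. For background, 397 genes (4.06%) had both Cd69-deficient libraries below both wild-type libraries in each subset, and the limma fit called 0.153% of genes between genotypes in stem-like (0.0409% higher, 0.112% lower) and 0.194% in term-diff (0.112% higher, 0.0818% lower). In these bulk samples fewer cells that express a gene and less RNA per cell cannot be told apart.

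Across the 4 groups the order of Ikzf2 levels was wild-type stem-like, wild-type term-diff, Cd69-deficient stem-like and Cd69-deficient term-diff. The middle groups did not differ beyond their spread, since both Cd69-deficient stem-like values (4.02 and 4.39 FPKM) fell between the wild-type term-diff values (3.69 and 5.31). From the highest to the lowest group the mean was 5.01-fold lower. On the log2 scale the genotype values of the subsets lay 0.05 ± 0.23 apart, a value that ran from -0.17 to 0.26 without 1 library. Ikzf2 rested on 121 to 722 implied fragments per library, against 555 to 2308 for Ikzf3 and 918 to 1109 for Ikzf1.

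**Figure D2:**
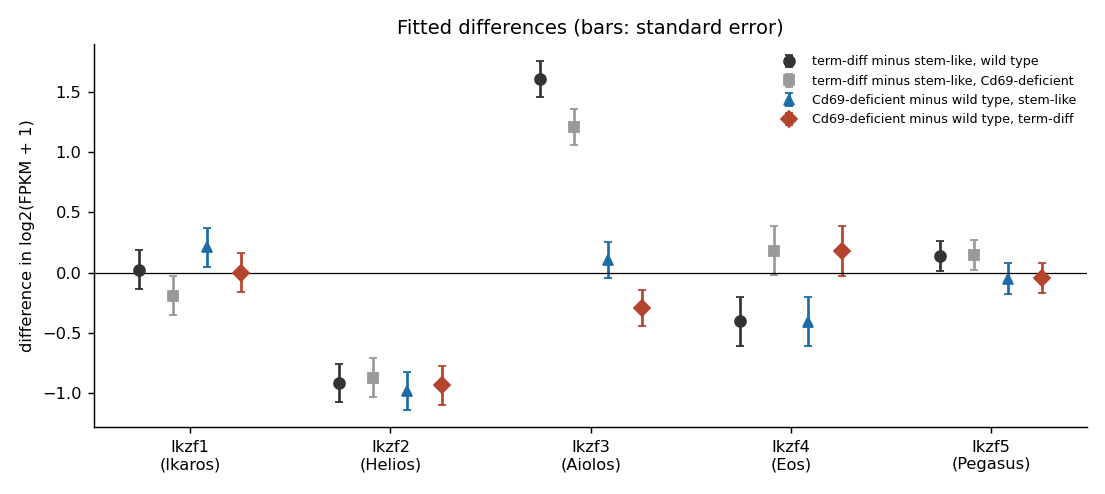
Fitted differences in log2(FPKM + 1) for the 5 members (points) with standard errors (bars), for term-diff minus stem-like in each genotype and Cd69-deficient minus wild type in each subset. Ikzf2 lies between -0.98 and -0.87 in all 4, Ikzf3 is at 1.60 and 1.20 between the subsets, and the genotype points are shown as a description.

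Ikzf1 encodes Ikaros, the founding member, required for lymphoid development (mm10 chr11:11686213-11772926). It was the most abundant member in stem-like libraries, at 35.4 and 42.4 FPKM in wild type and 44.9 and 45.1 where Cd69 was deficient. In term-diff it was at 34 and 45.5 in wild type and at 39.7 and 38.9 in Cd69-deficient cells. The lowest and highest of all 8 values both came from wild-type term-diff, and the range over libraries was 1.34-fold. Group means ran in the order 45 ± 0.114 (Cd69-deficient stem-like), 39.8 ± 8.13 (wild-type term-diff), 39.3 ± 0.509 (Cd69-deficient term-diff) and 38.9 ± 4.92 (wild-type stem-like), each group overlapping the wild-type term-diff range. The subset value was 0.02 ± 0.16 in wild type (95% interval -0.35 to 0.40, limma adjusted p = 0.944), with a sign that turned under median-of-ratios scaling (-0.04) and quantile normalization (-0.16). In Cd69-deficient cells it was -0.19 ± 0.16 (95% interval -0.56 to 0.18, limma adjusted p = 0.51). Between genotypes the Ikzf1 values were 0.21 ± 0.16 in stem-like and -0.0029 in term-diff.

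Ikzf5 encodes Pegasus, whose fingers recognise a different site from that of the other members (mm10 chr7:131388649-131410478). It stayed between 2.69 and 3.46 FPKM in all 8 libraries, the narrowest range in the family (1.29-fold). The wild-type libraries had 3.21 and 2.77 FPKM (stem-like) and 3.46 and 3.30 (term-diff), and the Cd69-deficient ones 2.69 and 3.02 (stem-like) and 3.32 and 3.20 (term-diff). Neighbouring groups in this order of means (wild-type term-diff, Cd69-deficient term-diff, wild-type stem-like, Cd69-deficient stem-like) overlapped. Within each genotype, though, both term-diff libraries lay above both stem-like libraries, as in 14.5% of genes. The subset values of 0.14 ± 0.12 in wild type (limma adjusted p = 0.522) and 0.14 ± 0.12 in Cd69-deficient cells (limma adjusted p = 0.516) did not pass. Its genotype values were -0.05 ± 0.12 and -0.04 ± 0.12.

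Ikzf4 encodes Eos, a partner of Foxp3 in gene silencing in regulatory T cells (mm10 chr10:128632415-128645993). It was the least abundant member, with 0.994 and 1.94 FPKM (stem-like) and 0.721 and 0.942 (term-diff) in wild type, and 0.963 and 0.699 (stem-like) and 1.17 and 0.982 (term-diff) in Cd69-deficient cells. Its highest value was that of wild-type stem-like replicate 2. Both Cd69-deficient term-diff values lay above those of Cd69-deficient stem-like and of wild-type term-diff, but only narrowly (0.982 against 0.963 and 0.942 FPKM). The share of all genes that separate in these 2 ways was not counted. Each library held 20 to 48.7 implied fragments of Ikzf4, and the deposited limits of neighbouring groups overlapped. The subset values were -0.40 ± 0.21 in wild type (95% interval -0.88 to 0.07, limma adjusted p = 0.243) and 0.18 ± 0.21 in Cd69-deficient cells (95% interval -0.29 to 0.65, limma adjusted p = 0.628). Although these have opposite signs, their difference did not pass (interaction 0.59 ± 0.29, limma adjusted p = 0.554), and the intervals leave room for a change of Eos in either direction. The genotype values of Ikzf4 were -0.41 ± 0.21 in stem-like and 0.18 ± 0.21 in term-diff. The interaction did not pass for Ikzf1 (limma adjusted p = 0.742) or Ikzf5 (limma adjusted p = 0.993) either, against 0.0307% of genes called in it (0.0204% higher, 0.0102% lower).

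Ratios between members within a library do not depend on how libraries are scaled. Ikzf3 was below Ikzf1 in all 4 stem-like libraries (0.439 to 0.503 times its FPKM) and above it in all 4 term-diff libraries (1.11 to 1.56 times). The exchange of the leading member was seen in both genotypes. In wild type Ikzf2 was at 0.222 and 0.258 times the level of Ikzf1 (stem-like) and at 0.108 and 0.117 times (term-diff), and in Cd69-deficient cells at 0.0894 and 0.0973 (stem-like) and 0.0433 and 0.0506 times (term-diff). On this scale the 4 groups did not overlap, while in FPKM the Ikzf2 values of wild-type term-diff and Cd69-deficient stem-like did. The genotype part is again a description, since the family was chosen by it. The summed FPKM of the family was 66.5 to 76 in stem-like and 87.9 to 120 in term-diff libraries. Helios made up 12.4% and 13.7% of that sum in the wild-type stem-like libraries, against 1.92% and 2.03% in the Cd69-deficient term-diff ones. Aiolos went from 25.7% to 27.9% in stem-like libraries to 49% to 55.8% in term-diff libraries.

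**Figure D3:**
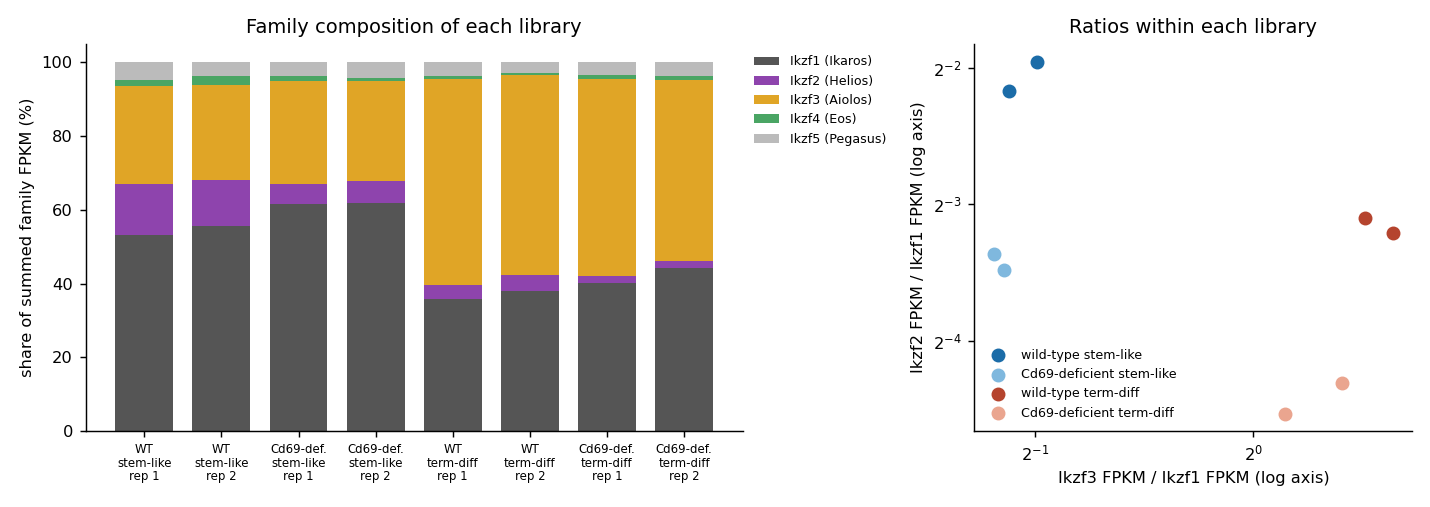
Left, the share of each member in the summed family FPKM of each library (percent, stacked bars from 0 to 100). Right, Ikzf3 and Ikzf2 divided by Ikzf1 in each library (both axes log): stem-like libraries lie at 0.439 to 0.503 and term-diff libraries at 1.11 to 1.56 on the Ikzf3 axis, and Cd69-deficient libraries lie below the wild-type libraries of the same subset on the Ikzf2 axis.

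Markers of other cells that carry Helios, Eos or Aiolos were measured in the same libraries. Foxp3, the defining factor of regulatory T cells, was at 0.423 and 0.475 FPKM in wild-type stem-like and at 1.14 and 0.979 in Cd69-deficient stem-like libraries, where Ikzf2 was lower. It was at 0.211 to 0.291 in all 4 term-diff libraries. Cd4 was at 1.38 to 5.52 FPKM, with overlap between all groups. The 7 markers of CD4 and regulatory T cells summed to 70.4 to 75.2 FPKM in wild-type stem-like and 74.1 to 76.8 in Cd69-deficient stem-like, and to 35.7 to 44.2 and 38.4 to 41 in term-diff. The sum was thus lower in term-diff, as Ikzf2 was, and overlapped between the genotypes. Of the 4 markers kept 3 fell in both subset comparisons, beside 3.92% of all genes called lower in both, namely Nrp1, a semaphorin receptor (-0.84 and -0.67), the IL-2 receptor chain Il2ra (-1.27 and -1.24) and the costimulatory receptor Tnfrsf4 (-0.72 and -0.86), all of which activated CD8+ T cells can also express. The part of such cells in the subset difference of Ikzf2 was not tested.

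B cell markers, which would accompany Aiolos of B cells, summed to at most 1.02 FPKM over 5 genes, with the B cell factor Pax5 at 0 in 5 libraries and at most 0.230. Their sum was 0.248 to 1.02 FPKM in wild-type stem-like and 0.0825 to 0.260 in wild-type term-diff, where Ikzf3 was high, and 0.502 to 0.776 and 0.303 to 0.604 in the Cd69-deficient libraries of these subsets. The NK cell receptor Ncr1 was at most 0.375 FPKM. The NK list summed to 14.7 to 23 FPKM in stem-like and, in term-diff, to 26 to 27.4 in wild type and 35.9 to 36.8 in Cd69-deficient libraries, most of it from Klre1, a lectin-like receptor that CD8+ T cells also express. Myeloid markers (7 with a row) summed to 37.8 to 55.6 FPKM in stem-like, and in term-diff to 19.1 to 20 in wild type and 28 to 30.7 in Cd69-deficient libraries, mainly from Cst3. Tumour and stroma markers (6) summed to 11.3 to 14.9 FPKM in stem-like, and in term-diff to 6.46 to 6.95 in wild type and 4.79 to 5.28 in Cd69-deficient libraries, mainly from Pecam1. Of 5 gamma-delta T cell markers 2 had a row, with sums of at most 0.293 FPKM. In term-diff they summed to 0.112 to 0.158 in wild type and 0.176 to 0.206 in Cd69-deficient libraries. The NK, myeloid, tumour and stroma, gamma-delta, B cell and CD8 T cell sums thus did not overlap between the genotypes in term-diff. The B cell and gamma-delta sums held only genes below the filter. No kept gene of the 7 marker lists passed between genotypes in term-diff by limma. Of the sums that did not overlap, that of tumour and stroma was lower in Cd69-deficient libraries, as Ikzf2 was, and the others were higher. Pecam1 was the only tumour and stroma gene kept by the filter. How many genes separate in this way in term-diff alone was not counted. The part of these cells in the results was not tested.

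Of 14 NuRD subunits and histone deacetylases, with which Ikaros factors act, all were measured. In wild type 1 rose and 1 fell, beside 13.1% of all genes called (median 0.11, against 0.06 for all genes), and in Cd69-deficient cells 0 rose and 1 fell, beside 9.45% (median -0.08, against -0.03). Chd3, a NuRD helicase, fell in both. Wild-type libraries had 23 and 28.1 FPKM (stem-like) and 13.9 and 16.9 (term-diff), and Cd69-deficient ones 31.5 and 25.8 (stem-like) and 11.8 and 11.9 (term-diff). No term-diff library reached a stem-like one. The change was -0.70 ± 0.16 in wild type (limma adjusted p = 0.0232) and -1.20 ± 0.16 in Cd69-deficient cells (limma adjusted p = 0.00273). In wild type the adjusted p rose to 0.108 when stem-like replicate 2 was left out, to 0.118 when term-diff replicate 1 was, to 0.115 when both replicate 2 libraries were, and to 0.0715 with no filter, so the call ended in each. The related helicase Chd4, the main NuRD partner of Ikaros, had values of -0.04 and -0.33 and did not pass (adjusted p = 0.872 and 0.151). Gatad2a, a NuRD scaffold subunit, rose in wild type (0.66 ± 0.16, limma adjusted p = 0.0343). That call ended with the replicate number as a block (adjusted p = 0.0571), under quantile normalization (adjusted p = 0.0583), with no filter (adjusted p = 0.0979) and with only the wild-type libraries in the fit (adjusted p = 0.0576). Leaving out wild-type libraries ended it too, at an adjusted p of 0.166 for stem-like replicate 1, 0.0793 for term-diff replicate 1, 0.159 for term-diff replicate 2 and 0.101 for both replicate 2 libraries.

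Of 10 other corepressor and SWI/SNF genes 9 were kept and 0 passed by limma in either genotype (medians 0.14 and -0.15). At an unadjusted limma p under 0.05 there were 1 and 3 of the 9, beside 2739 and 2417 of all 9782 genes. The smallest p belonged to the remodelling subunit Smarcc1 in wild type (0.31 ± 0.11, limma adjusted p = 0.116) and the corepressor scaffold Sin3a in Cd69-deficient cells (-0.33 ± 0.12, limma adjusted p = 0.136). Among 9 genes of Ikaros protein turnover and phosphorylation, 1 rose and 0 fell in each genotype, near the 13.1% and 9.45% of all genes called (medians 0.14 and 0.06). This was Csnk2b, the regulatory subunit of casein kinase 2, a kinase that phosphorylates Ikaros, at 0.56 ± 0.12 (limma adjusted p = 0.0205) and 0.52 ± 0.12 (limma adjusted p = 0.0332). In wild type the call was lost when stem-like replicate 1 (adjusted p = 0.107), term-diff replicate 1 (adjusted p = 0.106) or both replicate 2 libraries (adjusted p = 0.0769) were left out, and with only the wild-type libraries in the fit (adjusted p = 0.0563). In Cd69-deficient cells it ended without any 1 of the 4 libraries (adjusted p = 0.0985 to 0.189), with the replicate block (adjusted p = 0.0634), under quantile normalization (adjusted p = 0.0519) and with no filter (adjusted p = 0.0583). Crbn, the cereblon receptor through which thalidomide-type drugs direct Ikaros and Aiolos to degradation, was at 11.2 to 18.6 FPKM in the 8 libraries and did not pass (0.10 and 0.25, adjusted p = 0.697 and 0.339).

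Of 20 genes known as regulated by Ikaros family members in lymphocytes, 11 were kept. In each genotype 1 rose and 2 fell, beside 13.1% of all genes called in wild type and 9.45% in Cd69-deficient cells (medians -0.02 and -0.14). Il7r, the IL-7 receptor chain of long-lived T cells, fell in wild type (-2.64 ± 0.19) and in Cd69-deficient cells (-2.04 ± 0.19, limma adjusted p = 0.000147 and 0.000716), and Il2ra fell (-1.27 ± 0.18 and -1.24 ± 0.18, limma adjusted p = 0.00361 and 0.00543). Tbx21, the effector factor T-bet, rose by 0.92 ± 0.12 and 0.72 ± 0.12 (limma adjusted p = 0.00222 and 0.00815). In Cd69-deficient cells the adjusted p of Tbx21 passed 0.05 on leaving out stem-like replicate 1 (0.0667), stem-like replicate 2 (0.0541) or term-diff replicate 1 (0.0576). Rescaling to an equal sum of FPKM ended the calls of Tbx21 (adjusted p = 1 in wild type and 0.997 in Cd69-deficient cells) and Il2ra (1 and 0.963) in both genotypes and of Il7r in Cd69-deficient cells (0.0592), and also those of Chd3 (1 and 0.997), Gatad2a (1) and Csnk2b (1 and 0.997). Il2, a gene that Ikaros and Aiolos are known to silence, was below the filter, at 0 to 0.954 FPKM in stem-like libraries and at 0 in all 4 term-diff libraries. Ifng, Bcl2, Myc, Cdkn1b, Cd8a, Cd8b1, Cd4 and Notch1 did not pass in either genotype. The list shares Cd8a, Cd8b1, Cd4, Il2ra and Foxp3 with the marker lists.

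Between genotypes 0 genes of these 4 lists passed in either subset by limma, nor did any in the interaction. In the order given, the lists had 14, 9, 9 and 11 genes kept. At an unadjusted limma p under 0.05 they had 0, 0, 1 and 2 genes in stem-like, beside 710 of all 9782 genes. In term-diff they had 2, 2, 0 and 5, beside 1481, and in the interaction 2, 2, 0 and 0, beside 889. The smallest adjusted p was that of Il7r in term-diff (1.12 ± 0.19, limma adjusted p = 0.0894), with 1.74 and 1.57 FPKM in wild type and 5.59 and 4.08 in Cd69-deficient cells. In stem-like cells it was also that of Il7r (0.52 ± 0.19, limma adjusted p = 0.6). In the other lists the smallest were Mbd2, a NuRD subunit (0.28, adjusted p = 0.718), Sin3a (0.19, adjusted p = 0.794) and Csnk2b (0.32, adjusted p = 0.619) in stem-like, and Mta1, a NuRD subunit (-0.39, adjusted p = 0.314), Smarcc1 (-0.40, adjusted p = 0.215) and Csnk2b (0.27, adjusted p = 0.337) in term-diff. Medians of the NuRD list were 0.11 in stem-like and -0.17 in term-diff, beside 0.06 and -0.05 for all genes.

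The genes closest to Ikzf2 in pattern were ordered by the root mean square difference, over the 8 libraries, of log2(FPKM + 1) after each gene was centred on its own mean, among 4708 genes with a mean of at least 5 FPKM. Pkp4, a plakophilin-related protein of cell junctions, was closest (0.154, against a median of 0.708 for these genes). Its group means were 28.6 FPKM in wild-type stem-like, 13.3 in Cd69-deficient stem-like, 16.8 in wild-type term-diff and 7.95 in Cd69-deficient term-diff, the same order of groups as Ikzf2. Spry2, an inhibitor of receptor tyrosine kinase signalling, followed (0.245), at 27.1, 13.3, 14.2 and 9.84 FPKM in the same order. Actn1, an actin cross-linker (0.274), and the membrane protein Itm2a (0.306) were also among the closest 5. Their genotype values were -0.64 and -0.45 for Actn1 and -0.68 and -0.25 for Itm2a, in stem-like and term-diff respectively. All these genes were picked for likeness to Ikzf2 over the same libraries. A similar order of groups and negative genotype values come with that choice and are no separate support.

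Closest to Ikzf3 were Nedd4, a ubiquitin ligase (0.1), Prex1, an exchange factor for Rac (0.107), the septin Sept11 (0.123), the zinc finger gene Zfp652 (0.131) and Nbeal2 (0.132), against a median of 0.709. Nedd4 had group means of 2.48 and 2.59 FPKM in wild-type and Cd69-deficient stem-like and 9.72 and 7.61 in term-diff. Prex1 had 16 and 15.4 in stem-like and 51.2 and 35.7 in term-diff. These likenesses describe 8 libraries of 4 groups, in which genes that differ by subset resemble one another.

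**Figure D4:**
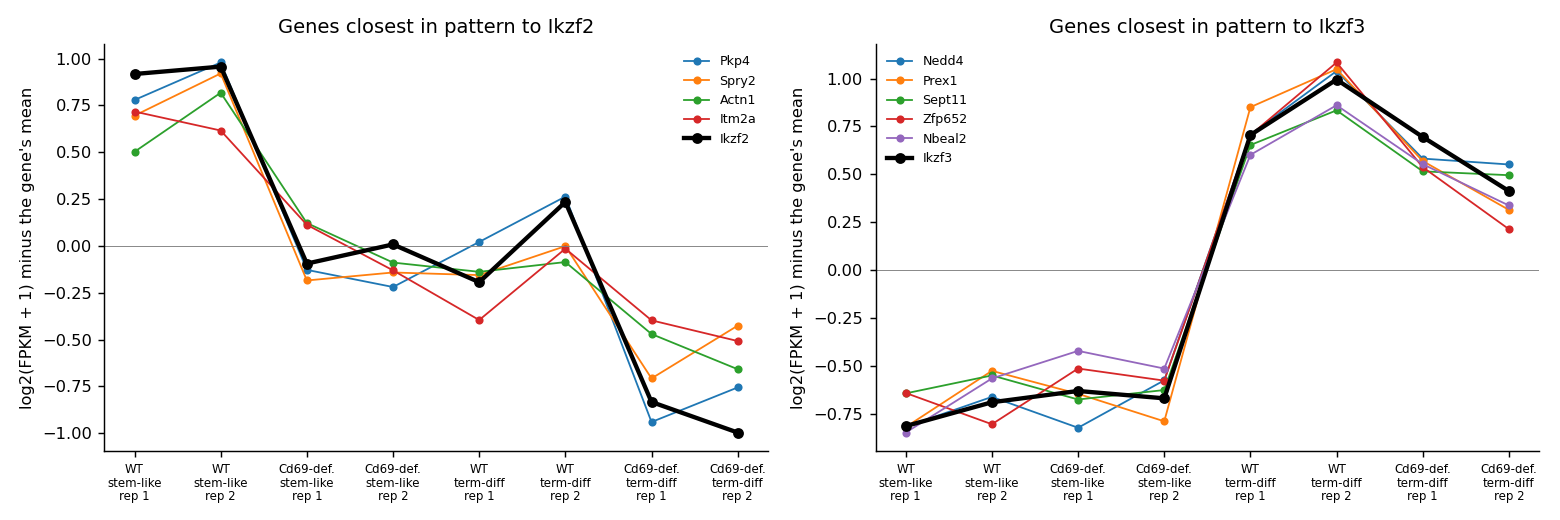
Centred log2(FPKM + 1) in each of the 8 libraries (x axis) for Ikzf2 and Ikzf3 (black) and genes closest to each in pattern (colours, 4 for Ikzf2 and 5 for Ikzf3), where lines only join the values of a gene. The genes beside Ikzf2 are highest in wild-type stem-like and lowest in Cd69-deficient term-diff, and those beside Ikzf3 are high in all 4 term-diff libraries.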

How the data were processed

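The authors deposited 1 gene table per library, laid out as Cufflinks writes it, with FPKM and the limits of its confidence interval; per the submitters' processing notes Cufflinks 2.2.1, TopHat 1.3.2, Bowtie2 2.3.4 and bcl2fastq 2.20 were used with mm10. The annotation, strand setting and the total behind the FPKM are not given in the sources used here. Start positions were raised by 1 to count from 1. Of all genes 3 had a status other than OK in a library and were left out. The fragments implied by a confidence interval are (2 × FPKM / (upper limit - FPKM)) squared. Between 63.6% and 65.5% of rows under 15 implied fragments came within 0.05 of whole, so these numbers are approximate and cover counting error only.

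A model of 4 group means was fitted to log2(FPKM + 1) of the 9782 genes that reached 1 FPKM in 2 or more libraries, by limma 3.58.1 (R 4.3.3) with trended empirical Bayes moderation on 4 residual and 4.2 prior degrees of freedom. The 2-sided p-values had a Benjamini-Hochberg adjustment over the whole table and a threshold of 0.05. The fit was tested on simulated data. Members and lists were chosen with earlier results of these data known. Named list genes were those called, at most 4 per list and comparison, or that with the smallest p. Nrp1, Tnfrsf4, Klre1, Cst3, Pecam1, Pax5, Chd4, Crbn and Il2, and library values of Ikzf4, were named for their role or after their values were seen. A B cell marker, left out of its list's sum, and a gene close to Ikzf2 in pattern are not reported here. Alternatives changed the pseudocount, filter, scaling, block, libraries and model. GENCODE M21 gave the sequences; the promoter table held 2 of 5 members (not Ikzf2, Ikzf3 or Ikzf4) and was not used.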

Additional observations from a re-analysis of the deposited data

How the results depend on the processing

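The rise of Ikzf3 and the fall of Ikzf2 in wild type kept their call under 18 of 19 alternatives, the rise of Ikzf3 in Cd69-deficient cells under 18 of 19 and the fall of Ikzf2 there under 14 of 19. Each kept its direction in all. Rescaling to an equal sum of FPKM ended all 4 calls (Ikzf2 -0.79 and -1.05, Ikzf3 1.77 and 0.84, wild type first). It moved the median of all genes from 0.06 to 0.20 in wild type, from -0.03 to -0.30 in Cd69-deficient cells, and between genotypes from 0.06 to -0.39 in stem-like and from -0.05 to -0.89 in term-diff. With no filter Ikzf2 in Cd69-deficient cells (-0.87) missed the threshold. Leaving out 1 library gave -1.13 to -0.70 for Ikzf2 and 1.46 to 1.75 for Ikzf3 in wild type, and -0.95 to -0.79 and 1.06 to 1.35 in Cd69-deficient cells.

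The uncalled wild-type subset value of Ikzf1 turned under median-of-ratios scaling (-0.040), quantile normalization (-0.16) and voom (-0.11), without both wild-type replicate 2 libraries (-0.055), and ranged from -0.18 to 0.23 without 1 library. Equal sums turned Ikzf4 (-0.017) and Ikzf5 (-0.13) in Cd69-deficient cells. The interaction of Ikzf1 turned with voom (0.050), that of Ikzf2, given without a test, was -0.27 with equal sums and -0.17 to 0.26 without 1 library, and that of Ikzf5 turned with equal sums (-0.41) and in 4 fits without 1 library (range -0.071 to 0.086). The genotype value of Ikzf2, by which the family was chosen, stayed negative throughout. Without 1 library it could not turn, since libraries of the genotypes did not overlap, so the sign is given as a description. In stem-like it was -0.63 with a pseudocount of 5, -1.45 with equal sums and -1.22 with voom, and -1.03 to -0.93 without 1 library. In term-diff it was -1.22 with a pseudocount of 0.1, -0.47 with 5, -1.72 with equal sums, -1.20 with voom, -0.72 without both wild-type replicate 2 libraries, and -1.15 to -0.72 without 1 library.

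Genes called over the whole table numbered 1278 and 924 between the subsets, 15 and 19 between genotypes, and 3 in the interaction. With no filter they were 752, 545, 4 and 11, and with equal sums 152, 70, 54, 61 and 51. With voom they were 1634 in the Cd69-deficient subset comparison, 43 and 340 between genotypes and 0 in the interaction (limma voom, 1041 genes at an unadjusted p under 0.05). A minimum of 5 FPKM gave 9 and 3 between genotypes, a pseudocount of 0.1 gave 5 in stem-like, quantile normalization 9 and the compared groups alone 51 in term-diff, and a pseudocount of 5 gave 8 in the interaction. Without both wild-type replicate 2 libraries, an alternative chosen after seeing the data, the wild-type subset count was 362 and the interaction 17. Without 1 library the counts were 620 to 1110, 287 to 900, 4 to 16, 3 to 23 and 2 to 9. In the wild-type subset comparison 708 calls were higher and 570 lower, a balance that turned after median-of-ratios scaling (659 and 710) and quantile normalization (652 and 717). Higher calls in the stem-like genotype comparison were 26.7%, but 14.3% after quantile normalization and 57.4% with equal sums; in term-diff they were 57.9%, but 33.3% after quantile normalization and 46.2% with median-of-ratios size factors. In the interaction 2 of 3 calls were higher, 1 of 2 after quantile normalization and 21 of 51 with equal sums.

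The titles number the replicates in every group. Deviations of same-numbered libraries correlated between -0.297 and 0.152 over the pairs of groups, so the numbers are not taken as pairing. With the replicate number as a block 8 and 6 genes were called between genotypes, and among the subset calls of Ikzf2, Ikzf3, Chd3, Gatad2a, Csnk2b, Tbx21, Il7r and Il2ra the block ended that of Gatad2a in wild type and that of Csnk2b in Cd69-deficient cells.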
